A study of Mus musculus with 4 samples.

Results

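In all, 10 genes of the MHC class II presentation pathway were followed through the airspace cells of mice exposed to house dust mite allergen, to Afghanistan dust, or to both. The genes were H2-Aa, H2-Ab1 and H2-Eb1, which encode class II chains, Cd74, which encodes the invariant chain, H2-DMa, H2-DMb1 and H2-DMb2 for the DM peptide editor, H2-Oa and H2-Ob for the DO inhibitor, and Ciita, the coactivator of class II transcription. They were chosen by name, not by their values, and all 10 were found among the 13838 genes of the count matrix. Each was summed over the 17 refined cell types that the authors assigned and over the 4 libraries. In GENCODE annotation of mouse build mm10 the 8 H2 genes lie within the MHC on chromosome 17, from H2-Oa (chr17:34092340-34095234) through H2-DMa (chr17:34119541-34139101), H2-DMb2 (chr17:34143307-34151555), H2-DMb1 (chr17:34153072-34160230), H2-Ob (chr17:34238903-34254414), H2-Ab1 (chr17:34257689-34269419) and H2-Aa (chr17:34282744-34287823) to H2-Eb1 (chr17:34305867-34316674). Ciita lies on chromosome 16 (chr16:10480059-10528418) and Cd74 at chr18:60803848-60812652.

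All groups were C57BL/6 mice, with no age given in the labels. The HDM+APM mice breathed aerosolized Afghanistan particulate matter (APM) at 5 mg/m3 for 6 hours a day over 12 days and then received house dust mite extract (HDM) through the nose. The HDM mice breathed filtered air before the same allergen, the APM mice breathed the dust and later received PBS, and the control mice had filtered air and PBS. Sensitization used 10 µg HDM on days 22 and 29, starting 9 days after the last dust exposure, and was followed by challenge on days 36, 37 and 38 and by lung lavage on day 39. Each group is 1 library, pooled from the lavage of 7 animals, so no value has a replicate, no difference between groups could be tested, and every interval given covers counting error alone (95%).

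Class II molecules display peptides from engulfed proteins to CD4 T cells. Their chains assemble on the invariant chain, proteases such as cathepsin S trim that chain to a small peptide, and DM exchanges this peptide for antigen, a step that DO restrains. Dendritic cells and B cells make class II molecules constitutively, while resting alveolar macrophages are known for low levels that interferon gamma and inflammation can raise. C57BL/6 mice carry a defective H2-Ea gene, so the H2-Eb1 transcript is made without a surface I-E molecule.

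The HDM+APM, HDM, APM and control libraries held 1123, 994, 3890 and 3918 cells with medians of 4780.0, 1380.0, 2637 and 3417 unique molecular identifiers (UMIs, counted transcripts) per cell. Cells under 1000 UMIs made up 29.4% of the HDM library and 1.25 to 5.88% of the others. Across all cells Cd74 gave 63878 UMIs, H2-Aa 21948, H2-Ab1 16472, H2-Eb1 12543, H2-DMa 6023, H2-DMb1 3622, H2-DMb2 1623, H2-Ob 534, H2-Oa 297 and Ciita 129. Levels are CPM, counts per 1000000 of the UMIs summed over a cell type in a library. The 3' kit counts transcript ends, so CPM is not divided by gene length, and levels were compared between cell types for 1 gene, not between genes. Cells were kept as deposited without a doublet caller, and 42 cell barcodes occurred in more than 1 library, in 84 cells, 5 of them in Macrophage 8. The cell type names are the authors': the cells named classical monocyte had C1qb and C1qc but no marker of classical monocytes among their 10 leading genes, and the dendritic cells, led by Ccl22, Ccr7, Fscn1 and Ccl17, had Xcr1 and Clec9a at 0 in every library.

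Class II genes are known to share a proximal promoter module, in which an X box binds the RFX complex and a Y box binds NF-Y, and Ciita acts through the factors bound there. RefSeq promoter windows of build GRCm38.p6, which hold 250 bases before the start site and 50 after it, matched 7 of the members by symbol; H2-Ab1, Cd74 and Ciita were not matched. Segments of 68 bases around the X and Y boxes are shown for 6 of them, read 5′ to 3′ on the gene's strand. In the HDM+APM and HDM libraries, different cell types held the largest share of the UMIs of H2-DMb1 and of H2-DMb2, so both are shown. The other segments set the H2-O genes, found mostly in B cells there, beside H2-Aa and H2-Eb1. B cells held these too, but dendritic cells and a macrophage cluster also had them at high levels. Capitals mark exact matches to the Y box CTGATTGG or its core ATTGG, and to an X box pattern of CCTAG, any 2 bases, AC, any 3 bases and TG.
H2-DMb1: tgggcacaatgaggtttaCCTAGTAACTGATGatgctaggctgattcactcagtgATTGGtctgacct
H2-DMb2: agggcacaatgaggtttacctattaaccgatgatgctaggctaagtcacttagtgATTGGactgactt
H2-Aa: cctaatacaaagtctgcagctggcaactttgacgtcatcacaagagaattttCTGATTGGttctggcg
H2-Eb1: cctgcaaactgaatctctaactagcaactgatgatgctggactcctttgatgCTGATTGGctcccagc
H2-Oa: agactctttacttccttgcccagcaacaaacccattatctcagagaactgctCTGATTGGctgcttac
H2-Ob: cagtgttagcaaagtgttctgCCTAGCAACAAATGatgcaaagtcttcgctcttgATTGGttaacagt

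These segments lie at chr17:34153075-34153142 (plus strand, bases -116 to -49) for H2-DMb1, chr17:34145104-34145171 (plus strand, bases -145 to -78) for H2-DMb2, chr17:34287859-34287926 (minus strand, bases -103 to -36) for H2-Aa, chr17:34305753-34305820 (plus strand, bases -114 to -47) for H2-Eb1, chr17:34092281-34092348 (plus strand, bases -98 to -31) for H2-Oa and chr17:34238793-34238860 (plus strand, bases -112 to -45) for H2-Ob, with bases counted from the start site. With both strands searched, CTGATTGG was present in 3 of the members' 8 windows (H2-DMa has more than 1) and in 4.1% of all 32851 RefSeq promoters. Its core, which every CTGATTGG contains and which reads CCAAT on the opposite strand, was in 7 of the 8 windows and in 37.4% of all promoters. The X box pattern was in 2 of the 8 windows, those of H2-DMb1 and H2-Ob, and in 0.228% of all promoters. Only exact matches were counted, so the other windows may hold near matches. The H2-Eb1 segment holds letters that differ from the pattern only in its first base. H2-Aa alone among these windows held TGACGTCA, the cyclic AMP response element and X2 box, at bases -74 to -67, a motif of 1.79% of all promoters. Between the H2-DMb1 and H2-DMb2 segments 88.2% of positions were the same, and the 8 substitutions were T1A, G23T, T28C, G43A, T45G, C51T, T61A and C67T, counted from 1 at the 5′ end with the H2-DMb1 base first. The 2 of them within positions 19 to 32, G23T and T28C, are in the X box. G23T falls on a fixed base of the pattern, so the H2-DMb2 letters did not match it, while T28C falls where any base is allowed.

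The 4 members with the most UMIs, H2-Aa, H2-Ab1, H2-Eb1 and Cd74 (the core genes), had their highest levels in dendritic cells, B cells and Macrophage 8, the one macrophage cluster that stood apart from the rest. Dendritic cells numbered 10, 38, 23 and 5 in the HDM+APM, HDM, APM and control libraries. Their H2-Aa level, for the alpha chain of I-A, was 8553, 6195, 4947 and 6934 CPM in that order, and their Cd74 level was 21178, 15275, 20385.5 and 24698 CPM. B cells 1 had 3073 and 3652 CPM of H2-Aa in the HDM+APM and HDM libraries, and B cells 2, of which 404 cells came from HDM+APM, had 2637 CPM there. Macrophage 8 had 3063, 2717, 2347 and 1932 CPM of H2-Aa in the HDM+APM, HDM, APM and control libraries. In Macrophages 1 to 7, 9 and 10, summed here as the other macrophages, H2-Aa reached 323, 472, 257 and 379 CPM. Every library therefore had H2-Aa in Macrophage 8 above the other macrophages, with intervals that did not overlap, and the same held for H2-Ab1, H2-Eb1 and Cd74.

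**Figure D1:**
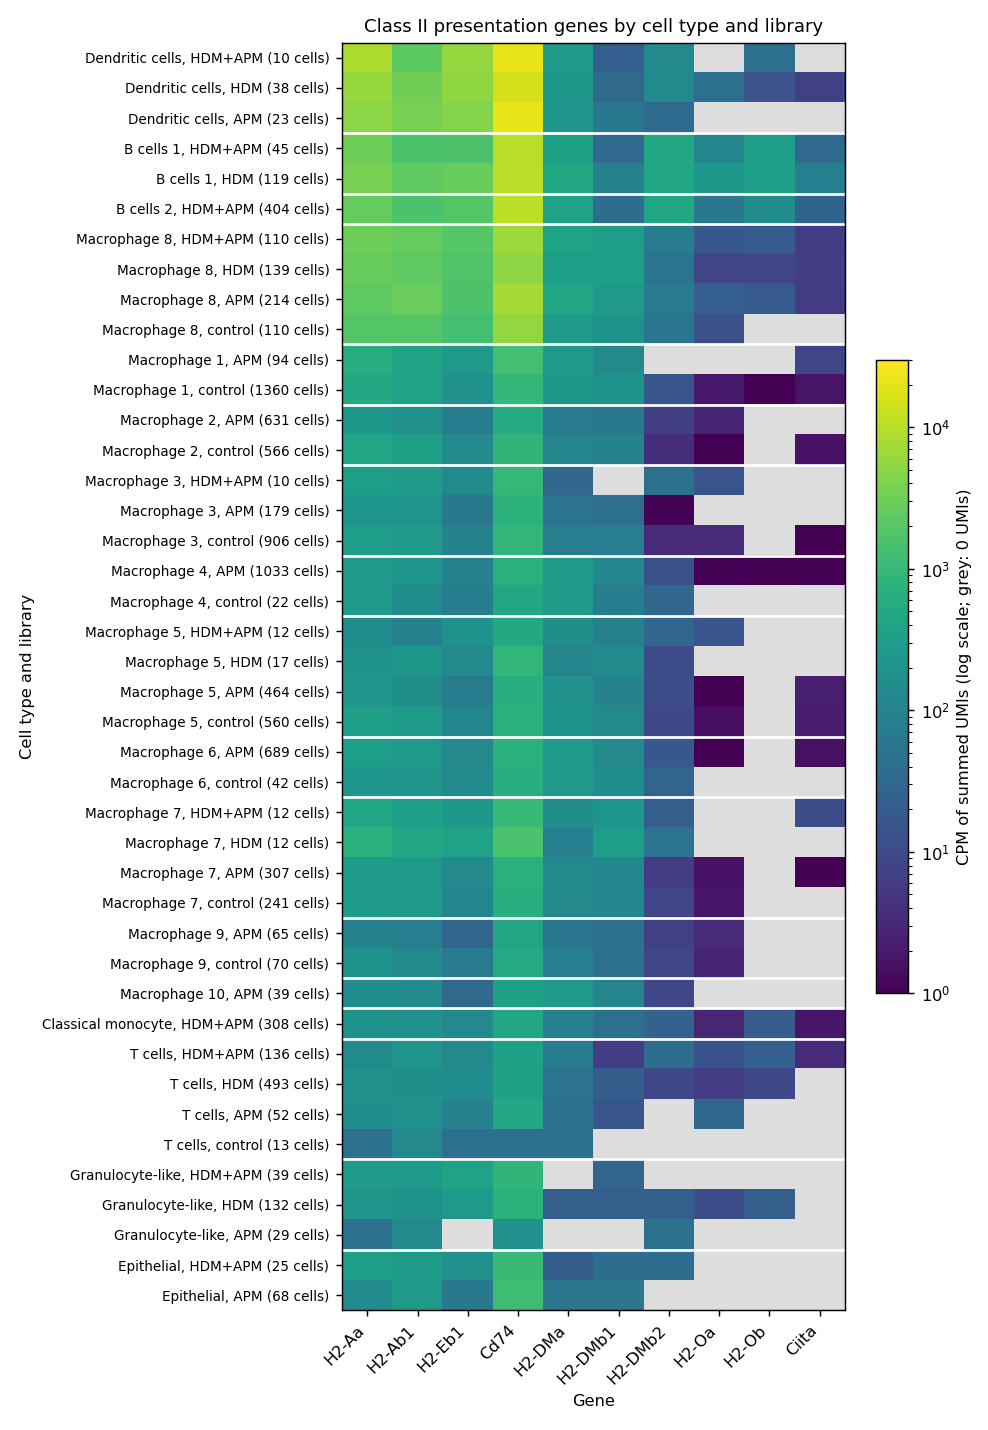
Level of the 10 genes (across) in each cell type and library with at least 10 cells (down), as CPM of summed UMIs on a log colour scale; grey marks 0 UMIs and there is 1 pooled library per group. Dendritic cells, B cells and Macrophage 8 carry H2-Aa, H2-Ab1, H2-Eb1 and Cd74 at the highest levels, while H2-Oa, H2-Ob and Ciita are largely in B cells.

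H2-Ab1, the beta chain of I-A, was higher in dendritic cells than in Macrophage 8 in HDM, APM and control, with intervals that did not overlap. In HDM+APM, with 10 dendritic cells, the intervals overlapped, at 1841 to 2725 CPM in dendritic cells and 2460 to 2745 CPM in Macrophage 8. Dendritic cells had 2251, 3189, 3614 and 3948 CPM in the HDM+APM, HDM, APM and control libraries, Macrophage 8 had 2599.7, 2310.2, 2861 and 1913 CPM, and B cells 1 had 1617 and 2438 CPM in the HDM+APM and HDM libraries. Among types with at least 30 cells, which left out the dendritic cells of HDM+APM, APM and control, Macrophage 8 stood first in those libraries. In HDM it came after dendritic cells and beside B cells 1, whose interval overlapped its own. B cells 1 and B cells 2 of the HDM+APM library, at 1617 CPM (1361 to 1907) and 1644 CPM (1592 to 1697), could not be ordered either. In APM and control the next cluster was Macrophage 1, at 409 and 387 CPM, and in control its interval overlapped that of Macrophage 2. The other macrophage clusters of the APM library formed a run of overlapping neighbours that also took in the T cells, at 176 CPM (87.7 to 314).

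In every library, H2-Eb1 and Cd74 were higher in dendritic cells than in Macrophage 8, as H2-Aa was. H2-Eb1 was at 5959, 5396, 4349 and 3239 CPM in dendritic cells, 1994, 1772, 1665 and 1373 CPM in Macrophage 8 and 181, 240.0, 94.5 and 126 CPM in the other macrophages of the HDM+APM, HDM, APM and control libraries. Cd74 was at 6629, 5121, 7564 and 5613 CPM in Macrophage 8 and 848, 1478, 682 and 825 CPM in the other macrophages, and at 10148 and 10294 CPM in B cells 1 of the HDM+APM and HDM libraries. Cells named classical monocyte, present only in HDM+APM (308 cells), had 202 CPM of H2-Aa, 187 of H2-Ab1, 129 of H2-Eb1 and 435 of Cd74, values near those of the T cells of that library, at 143, 205, 137 and 369 CPM. Mouse T cells do not make class II molecules, so their UMIs give a measure of free RNA and mixed droplets. With every cell thinned to 1000 UMIs, a Cd74 UMI was found in 26.3% (21.5 to 31.6) of the cells named classical monocyte and in 28% (20.6 to 36.5) of the T cells (median depths before thinning 5270.0 and 1850.5 UMIs), so the Cd74 share of the cells named classical monocyte did not exceed that of the T cells. The same comparison gave 12.3 and 19.7% for H2-Ab1, and 15.6% (11.7 to 20.1) and 8.33% (4.23 to 14.4) for H2-Aa, whose intervals overlap. H2-DMb1 did lie higher, at 45.1 CPM (35.4 to 56.7) in the cells named classical monocyte and 6.83 CPM (0.828 to 24.7) in the T cells, and the part of the depth gap was not tested. Cells with fewer than 1000 UMIs were left out of all thinned values.

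Where the class II RNA of a library lay depended on which cells were present. The 4 core genes together made up 9954, 7871, 1856 and 1775 CPM of all UMIs in the HDM+APM, HDM, APM and control libraries. In HDM+APM, B cells held 78.3% of these UMIs with 40.0% of the cells, and Macrophage 8 held 13.7% with 9.8%. In HDM the UMIs were spread over Macrophage 8 (36.2%), dendritic cells (28.1% with 3.82% of the cells) and B cells (26%). The other macrophages held 63.2% of the core UMIs in APM and 90.7% in control, with 90.0 and 96.4% of the cells. In APM a further 22% came from Macrophage 8 and 12.7% from dendritic cells, against 6.33 and 2.85% in control. The cell shares of 1 pooled library per group carry no animal-to-animal spread, so these shares describe the libraries.

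**Figure D2:**
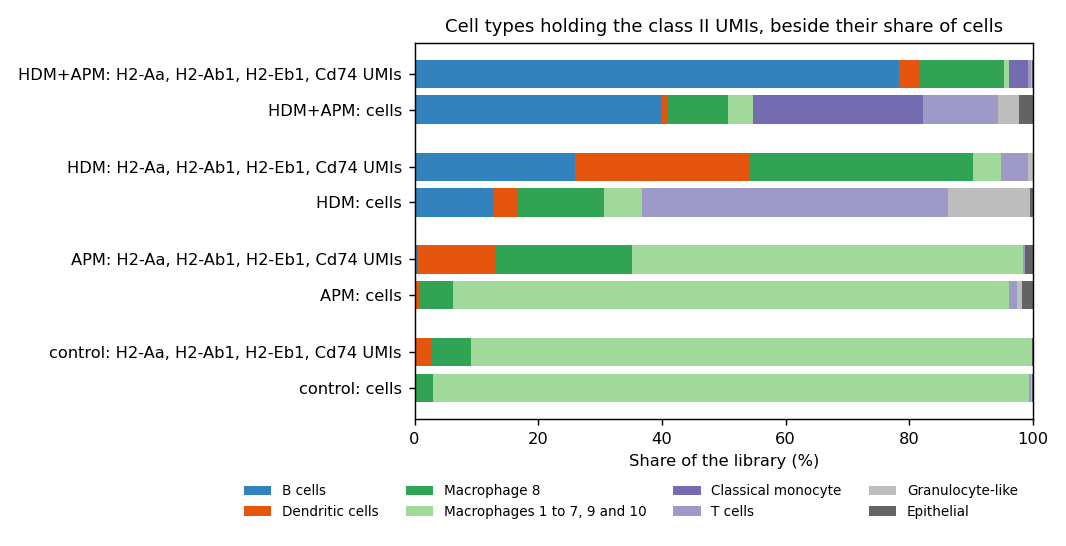
Share of the UMIs of H2-Aa, H2-Ab1, H2-Eb1 and Cd74 together (percent) beside the share of cells (percent), by cell type, in the HDM+APM, HDM, APM and control libraries. B cells hold 78.3% of these UMIs in HDM+APM, and the other macrophages hold 90.7% in control.

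The proportions between the core genes also varied with cell type. H2-Aa UMIs per H2-Ab1 UMI numbered 3.8 (3.06 to 4.76), 1.94, 1.37 and 1.76 in dendritic cells of the HDM+APM, HDM, APM and control libraries, and 1.18, 1.18, 0.82 and 1.01 in Macrophage 8. Cd74 UMIs per H2-Ab1 UMI numbered 9.41, 4.79, 5.64 and 6.26 in dendritic cells, 6.28 and 4.22 in B cells 1 of the HDM+APM and HDM libraries, and 2.55, 2.22, 2.64 and 2.93 in Macrophage 8. Dendritic and B cells thus held more Cd74 UMIs per H2-Ab1 UMI than Macrophage 8 did in the same library. For H2-Eb1 the ratio to H2-Ab1 was 0.767, 0.767, 0.582 and 0.718 in Macrophage 8, against 0.45 (0.418 to 0.485) in the other macrophages of APM and 0.417 (0.395 to 0.44) in those of control.

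H2-DMa, the alpha chain of DM, had a smaller gap between Macrophage 8 and the other macrophages than the core genes had. Macrophage 8 had 399, 309, 429.5 and 267 CPM in the HDM+APM, HDM, APM and control libraries, the other macrophages had 122, 133, 179.9 and 148 CPM, and dendritic cells had 300.1, 248, 224 and 304 CPM. B cells 1 had 355 and 483 CPM in the HDM+APM and HDM libraries. Within the APM library H2-DMa was at 271 CPM in Macrophage 4, 264 in Macrophage 6, 259 in Macrophage 10 and 251 in Macrophage 1, clusters whose intervals overlapped, and only 50.4 in Macrophage 3 and 57.2 in Macrophage 9. T cells had 78.6, 50.2, 47.9 and 43 CPM in the HDM+APM, HDM, APM and control libraries. H2-DMa UMIs per H2-Ab1 UMI came to 1.2 (1.08 to 1.34) in Macrophage 4 of APM and 0.15 (0.125 to 0.18) in Macrophage 8 of the same library. Several genes overlap H2-DMa on the opposite strand, H2-Eb1 overlaps Gm20513, H2-Oa overlaps BC051537 and Ciita overlaps Dexi; the sources used here do not say whether the counting used strand, so reads of these pairs may be shared.

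H2-DMb1 and H2-DMb2, the genes for the DM beta chain, were divided between cell types. In Macrophage 8 H2-DMb1 was at 320.2, 339.7, 268 and 197 CPM and H2-DMb2 at 80.5, 52.3, 71.6 and 57.2 CPM in the HDM+APM, HDM, APM and control libraries. B cells 2 of HDM+APM had 40.5 CPM of H2-DMb1 (93 UMIs) and 458 CPM of H2-DMb2 (1052 UMIs). H2-DMb2 UMIs per H2-DMb1 UMI therefore numbered 11.3 (9.14 to 14.1) in B cells 2 of HDM+APM and 0.252 (0.173 to 0.358) in Macrophage 8 of the same library. B cells 1 had ratios of 13.3 (4.25 to 67.4) in HDM+APM and 5 (2.9 to 9.17) in HDM, and dendritic cells of HDM had 4 (1.46 to 13.6), from 20 and 5 UMIs. The fewer dendritic cells of the other libraries gave 6 H2-DMb2 and 1 H2-DMb1 UMIs in HDM+APM, 3 and 5 in APM, and 0 and 3 in control, too few to give a share for each. In the other macrophages the ratio was 0.25, 0.0851, 0.0981 and 0.0676 in the HDM+APM, HDM, APM and control libraries. The division between B cells and Macrophage 8 was present in both HDM+APM and HDM; APM held only 3 B cells and control none.

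The cells named classical monocyte were between, with 0.568 (0.379 to 0.84) H2-DMb2 UMIs per H2-DMb1 UMI. With cells thinned to 1000 UMIs, an H2-DMb1 UMI was found in 32.6 and 19.8% of Macrophage 8 cells of the HDM+APM and HDM libraries, in 3.79 and 7.96% of B cells and in 0.758 and 1.63% of T cells. H2-DMb2 UMIs were in 38.8 and 37.2% of those B cells. Of all H2-DMb2 UMIs, B cells held 90.9% in HDM+APM and 63.7% in HDM, and of all H2-DMb1 UMIs Macrophage 8 held 43.8 and 63.2%. The transcripts are similar: 27.2% of 50-base windows of H2-DMb1 were found in H2-DMb2, but 7.69% of those in the last 400 bases of H2-DMb1 and 0% of those in the last 400 bases of H2-DMb2 were shared. The 3' kit reads near the transcript end, and how many reads of the pair were dropped or crossed over was not tested.

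**Figure D3:**
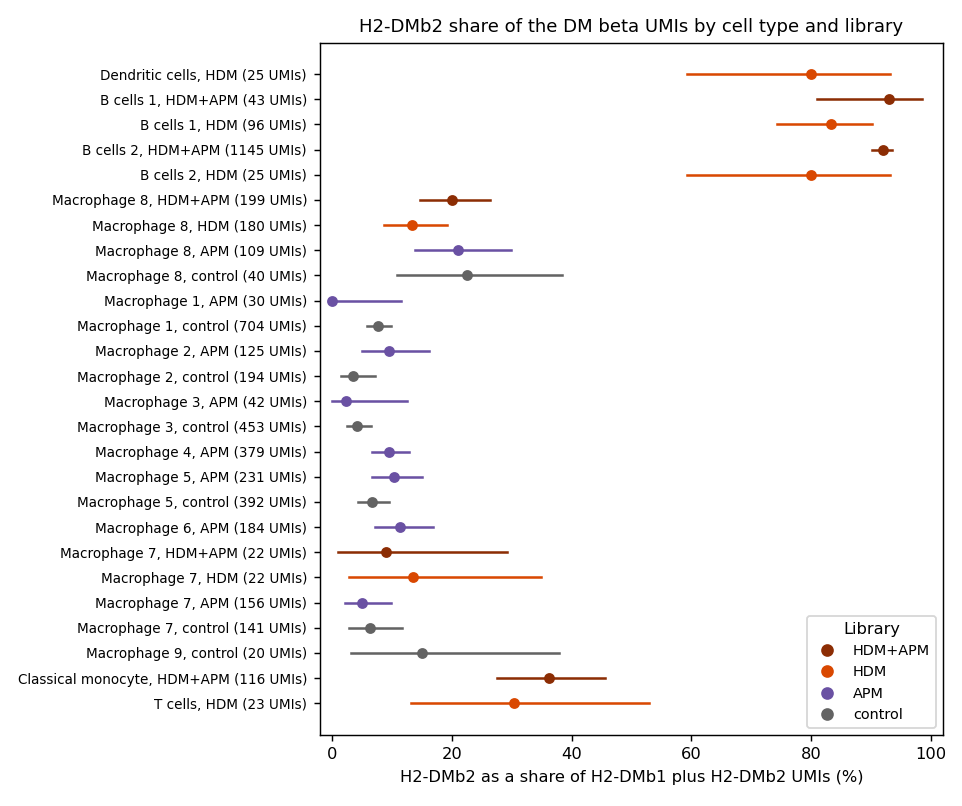
H2-DMb2 UMIs as a percent of H2-DMb1 and H2-DMb2 UMIs, by cell type and library, for sums of at least 20 such UMIs, with exact 95% binomial intervals (counting error only). B cells and the dendritic cells of HDM lie at high shares of H2-DMb2, B cells 2 of HDM+APM at 91.9%, while Macrophage 8 lies at 13.3 to 22.5%.

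H2-Oa and H2-Ob, the DO chains, were found mostly in B cells, the cell type for which DO is best known. H2-Oa was at 115 and 247 CPM in B cells 1 of the HDM+APM and HDM libraries and at 60.9 CPM in B cells 2 of HDM+APM. H2-Ob was at 321 and 328 CPM in B cells 1 and at 156 CPM in B cells 2 of HDM+APM. B cells held 88.8 and 76.1% of the H2-Oa UMIs and 88.4 and 82.6% of the H2-Ob UMIs of the HDM+APM and HDM libraries. Outside B cells the largest H2-Oa level in a type of at least 30 cells was 42.4 CPM (15.6 to 92.4) in dendritic cells of HDM, from 6 UMIs. H2-Ob was near absent from the other macrophages of APM and control, at 0.187 and 0.0669 CPM.

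Ciita was the sparsest member, with 129 UMIs in 120 cells. It was at 34.4 and 86.3 CPM in B cells 1 of the HDM+APM and HDM libraries, at 27.9 CPM in B cells 2 of HDM+APM and at 6.04, 6.53 and 6.23 CPM in Macrophage 8 of the HDM+APM, HDM and APM libraries. No Ciita UMI was counted in Macrophage 8 of control, where 0 counts allow up to 19.1 CPM, so no difference between libraries was detectable at this depth. Dendritic cells, which had the highest Cd74 levels, gave 1 Ciita UMI in HDM and 0 in the other libraries. B cells held 89.3 and 80.0% of the Ciita UMIs of the HDM+APM and HDM libraries. Of the RFX and NF-Y subunits, which Ciita needs on the promoter, Rfx5 had 6.63 CPM in the other macrophages of APM and 8.63 CPM in those of control.

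The first comparison set class II transcripts of the APM library beside those of control, in the macrophages that lavage mainly samples. A gene was called higher or lower where its CPM ratio between libraries was at least 1.5-fold, with an exact interval that excluded 1, among genes of at least 20 UMIs over both libraries. In the other macrophages, H2-Aa had 257 CPM in APM and 379 CPM in control, a ratio of 0.679 (0.649 to 0.711). The ratio was 0.693 (0.659 to 0.729) for H2-Ab1, 0.748 (0.693 to 0.808) for H2-Eb1, 0.826 for Cd74, 0.827 for H2-DMb1 and 1.21 (1.14 to 1.29) for H2-DMa, which alone had an interval above 1. Of 9 members measured 0 were called in either direction, beside 4.28% of all genes called higher and 3.41% called lower. Their median log2 ratio was -0.25, against 0.01 over all genes tested. With the clusters given equal weight the ratio turned round for Cd74 (0.04 on the log2 scale) and H2-DMa (-0.16), and with Macrophage 8 added to the class the members' median was 0.01.

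The single clusters gave different values, and of the 7 compared Macrophage 2 had the lowest median. There H2-Aa had 248 CPM in APM and 437 CPM in control, a ratio of 0.568 (0.504 to 0.639), and H2-Ab1 had 178 CPM in APM and 350.2 CPM in control, a ratio of 0.507 (0.441 to 0.582). H2-Eb1, H2-DMa and H2-DMb1 fell too, at ratios of 0.563, 0.647 and 0.635, so that 5 of 6 members were called lower, beside 4.46% of all genes called lower and 2.83% called higher. Cd74 had a ratio of 0.672 (0.619 to 0.728) and missed the fold. In Macrophage 3, H2-Eb1, H2-DMa and H2-DMb1 fell, at ratios of 0.618, 0.601 and 0.543, which made 3 of 7 members called lower beside 3.42% of all genes lower and 3.07% higher. H2-Aa and H2-Ab1 fell in Macrophage 5, at 0.629 and 0.608, or 2 of 7 members beside 7.67% of all genes lower and 2.27% higher. In Macrophage 9, H2-Aa and H2-Eb1 fell, at 0.532 and 0.386, or 2 of 6 beside 5.34% lower and 3.98% higher. The medians over the measured members were -0.67, -0.51, -0.41 and -0.54 in Macrophages 2, 3, 5 and 9, against -0.04, -0.02, -0.08 and -0.03 over all genes.

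Of the members measured in Macrophages 1, 6 and 7, 0 were called in either direction. The share of all genes called there was 1.76% higher and 1.88% lower in Macrophage 1, 0.968 and 2.47% in Macrophage 6, and 2.76 and 4.45% in Macrophage 7. Cd74 in Macrophage 1 had a ratio of 1.49 (1.33 to 1.68), just inside the fold, from 1398 CPM in APM and 936 CPM in control. The medians were 0.08, 0.04 and 0.00, against -0.07, 0.05 and -0.02 over all genes. Whether clusters differed in their response was not tested.

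Other measures moved with the lower values in APM. Haemoglobin and other red cell transcripts (5 of 5 markers above 0) summed to 4262 to 9589 CPM in Macrophages 2, 3, 5 and 9 of APM and to 188 to 256 CPM in the same clusters of control, where Macrophage 9 had 4 of 5 above 0. Epithelial markers summed to 1082 to 2078 CPM in APM (6 or 7 of 7 above 0) and to 219.6 to 561 CPM in control (4 to 6 of 7). In Macrophage 1, where no member was called lower, the red cell sum was 3403 CPM in APM and 254 CPM in control. The median depth was 2692 UMIs per cell in APM and 3294 in control for Macrophage 2, and 5082 and 5619 for Macrophage 3. With cells thinned to 1000 UMIs, an H2-Ab1 UMI was found in 13.8% (11.2 to 16.7) of Macrophage 2 cells of APM and 21.7% (18.4 to 25.4) of those of control. In 33 T cells of APM the share was 9.09% (1.92 to 24.3). That wide interval takes in both values, so these few T cells could not tell H2-Ab1 from background. A UMI of any core gene was found in 43.4% (39.5 to 47.4) of Macrophage 2 cells of APM and 58.1% (53.9 to 62.2) of those of control. In the T cells of APM it was 18.2% (6.98 to 35.5). The part of these measures in the result was not tested.

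**Figure D4:**
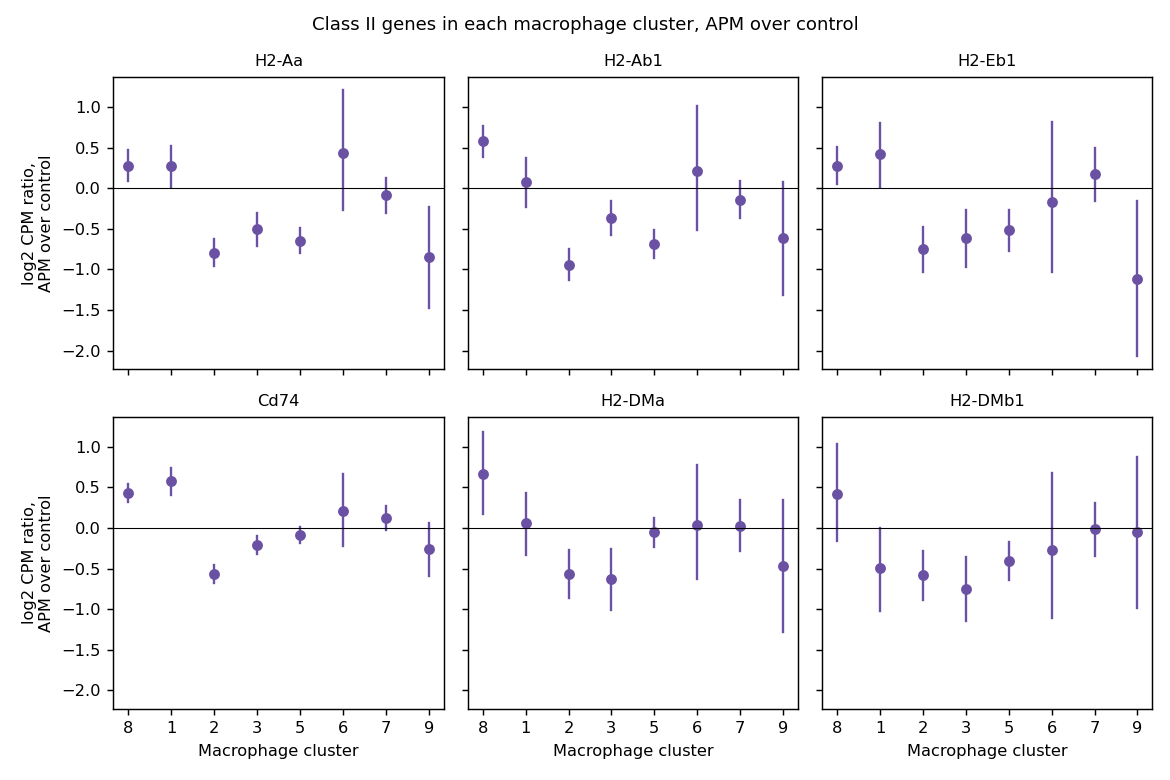
Log2 ratio of APM over control, as log2 of CPM plus 10, for 6 class II genes (panels) in each macrophage cluster with at least 30 cells in both libraries; bars are counting intervals (95%) and 1 pooled library stands for each group. The points of H2-Aa and H2-Ab1 lie below 0 in Macrophages 2, 3, 5, 7 and 9 and above 0 in Macrophages 1, 6 and 8, where some bars cross 0. H2-DMa lies above 0 in Macrophage 8 and below it in Macrophages 2 and 3, among others.

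After allergen alone few of these macrophages were recovered, 60 cells in HDM against 3776 in control, and H2-Eb1 and Cd74 were higher in their sum. H2-Eb1 had 240.0 CPM in HDM and 126 CPM in control, a ratio of 1.9 (1.45 to 2.44), and Cd74 had 1478 CPM in HDM and 825 CPM in control, a ratio of 1.79 (1.61 to 1.98). These 2 of 8 measured members were called higher, beside 7.24% of all genes, and 0 were called lower beside 2.67%. H2-Aa had a ratio of 1.25 (1.03 to 1.49), H2-Ab1 of 1.36 (1.11 to 1.64), H2-DMb1 of 1.48 (1.08 to 1.98) and H2-DMa of 0.899 (0.625 to 1.25). The members' median log2 ratio was 0.45, against 0.04 over all genes tested, and 1.39 with Macrophage 8 added to the class, since Macrophage 8 was the larger share of HDM macrophages. Dendritic cell markers summed to 811 CPM in these HDM cells (8 of 12 above 0, with Flt3, Zbtb46, Itgae and Xcr1 at 0) and to 37.5 CPM in control (10 of 12), and their part in the result was not tested. In HDM+APM only 46 such cells were recovered, with 848 CPM (739 to 969) of Cd74. The HDM clusters differed. H2-Eb1 had 378 and 376 CPM in Macrophages 3 and 7 of HDM (9 and 12 cells), against 98.9 and 112 CPM in control. Macrophages 1, 2 and 5 of HDM (9, 7 and 17 cells) had 183, 87.4 and 131 CPM, against 185, 136 and 114 CPM. Macrophage 3 held 155 of the 388 Cd74 UMIs of HDM, at 2792 CPM against 875 CPM in control. Macrophages 1 and 5 had 1053 and 885 CPM, against 936 and 705 CPM. The part of the cluster mix was not tested.

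Macrophage 8 was present in every library, with 110, 139, 214 and 110 cells in HDM+APM, HDM, APM and control. Between HDM and control, H2-DMb1 rose, with 339.7 CPM in HDM and 197 CPM in control, a ratio of 1.72 (1.17 to 2.62). That was 1 of 7 measured members, beside 10.8% of all genes called higher and 8.65% lower. H2-Aa had a ratio of 1.41 (1.24 to 1.6), H2-Ab1 of 1.21 (1.06 to 1.38) and Cd74 of 0.912 (0.844 to 0.987), and the median log2 ratio was 0.27 against 0.07 over all genes. Between APM and control, H2-DMa rose, with 429.5 CPM in APM and 267 CPM in control, a ratio of 1.61 (1.13 to 2.33), or 1 of 7 members beside 3.34% of genes higher and 3.19% lower. H2-Ab1 lay at the edge of the fold, at 2861 CPM in APM and 1913 CPM in control, a ratio of 1.5 (1.31 to 1.71) that fell short of it before rounding. The median of that comparison was 0.42, against 0.03 over all genes. The HDM over control and APM over control values share the control library. Epithelial markers summed to 1522, 348, 3474 and 16031 CPM in Macrophage 8 of HDM+APM, HDM, APM and control (7, 4, 7 and 7 of 7 above 0). Alveolar macrophage markers summed to 35834, 38406, 6705 and 7309.8 CPM in that order (12 of 12 in each). Chil3 alone gave most of the HDM+APM and HDM sums among cells of at least 1000 UMIs. The median depth was 4840.0, 3056, 1218.5 and 1176 UMIs per cell, and the part of these measures in the results was not tested. For HDM over control the median moved to 0.07 with cells of at least 1000 UMIs only, 0.75 after thinning and 1.15 as a mean over cells, where Cd74 was higher and not lower in HDM in the last of these and after thinning (0.91 and 0.16 on the log2 scale).

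Between the library given dust before allergen and the library given allergen alone, no member was called in Macrophage 8. Between HDM+APM and HDM the ratio was 1.13 (1.05 to 1.22) for H2-Aa, 1.13 (1.04 to 1.22) for H2-Ab1, 1.12 (1.02 to 1.24) for H2-Eb1, 1.29 (1.23 to 1.37) for Cd74 and 1.54 (0.907 to 2.67) for H2-DMb2. None of 7 members was called, beside 3.96% of genes higher and 6.68% lower, and the median was 0.17, against -0.06 over all genes. Between HDM+APM and APM, 0 of 7 members were called, beside 8.42% of genes higher and 9.86% lower, with ratios of 1.31 (1.2 to 1.43) for H2-Aa and 0.909 (0.834 to 0.99) for H2-Ab1. The median there was 0.15, against -0.03 over all genes.

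The Macrophage 8 sums rested on many cells after allergen and on few cells without it. With each cell thinned to 1000 UMIs, the median Macrophage 8 cell held 6.5 core UMIs in HDM+APM (quartiles 2 and 27), 7 in HDM (3 and 15), 1 in APM (0 and 4) and 1 in control (0 and 3). The means were 15.5, 12.5, 12.5 and 9.16 core UMIs per cell in that order. Cells with at least 10 of 1000 UMIs from the core genes made up 44.2% (33.5 to 55.3) of 86 cells in HDM+APM, 41.3% (32.4 to 50.6) of 121 in HDM, 16.3% (10.6 to 23.5) of 141 in APM and 17.4% (9.32 to 28.4) of 69 in control. In APM and control the top 10% of cells held 76.7 and 74.7% of the core UMIs, against 39.1 and 38.8% in HDM+APM and HDM. Thinning left out 24, 18, 73 and 41 shallower cells of the HDM+APM, HDM, APM and control libraries. The mark of 10 UMIs is a range and not a cell type, and 16, 41, 9 and 6 cells lay between 5 and 14 core UMIs. Unthinned, a Cd74 UMI was found in 89.1, 89.9, 43.9 and 42.7% of Macrophage 8 cells, and thinned in 77.9, 76, 41.8 and 42%, beside 28, 18 and 12.1% of thinned T cells of HDM+APM, HDM and APM.

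The Macrophage 8 cells rich in class II also carried more Cd209a and Ccl17, and a higher sum of monocyte-derived macrophage markers, than the others. Cd209a, a lectin of monocyte-derived dendritic cells, was at 203, 137, 168 and 154 CPM in the cells with at least 10 core UMIs of HDM+APM, HDM, APM and control, and at 3.69, 0, 0 and 0 CPM in the cells below. The 12 dendritic cell markers summed to 1784, 3546.5, 3320.4 and 3609 CPM in the richer cells (10, 8, 9 and 9 of them above 0) and to 409.6, 2272, 58.4 and 62.3 CPM in the others (6, 7, 5 and 3 above 0). Ccl17, also a leading gene of Macrophage 8, gave 1301, 3140.5, 2801 and 3085 CPM of the sums in the richer cells. Ccr7 and Fscn1, leading genes of the dendritic cells, reached at most 29.0 CPM there. Monocyte-derived macrophage markers summed to 2365, 3618, 5484 and 4751 CPM in the richer cells and to 1491, 836, 3799 and 2087 CPM in the others. Alveolar macrophage markers summed to 17199.7, 19571, 2264 and 2931 CPM in the richer cells and to 51137, 50043, 6867 and 8235 CPM in the others. Of these sums, Chil3 alone gave 14361, 16377, 906 and 1944 CPM in the richer cells and 45539, 43698, 4291 and 4974 CPM in the others. Other alveolar markers went both ways between libraries. Below the mark, Marco was at 100 CPM in HDM and 270 CPM in control, and Car4 at 854 CPM in HDM and 125 CPM in control. Red cell transcripts summed to 33.8, 12920.3, 73182 and 278 CPM in the richer cells of HDM+APM, HDM, APM and control and to 44.3, 2257, 7457 and 332 CPM in the others. Epithelial markers summed to 1209, 352, 1660.2 and 586 CPM in the richer cells and to 1694, 348, 4208 and 25774 CPM in the others, so the control cells below the mark carried the most. These cells were split on the core genes themselves, so the values describe them and were not tested. Without the 43, 45, 21 and 9 Macrophage 8 cells that held a UMI of a dendritic cell marker other than Ccl17 and Ccl22, an alternative chosen after the values were seen, the median log2 ratio of the members was 1.28 for HDM over control, 0.17 for APM over control, -0.44 for HDM+APM over HDM and 0.60 for HDM+APM over APM.

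**Figure D5:**
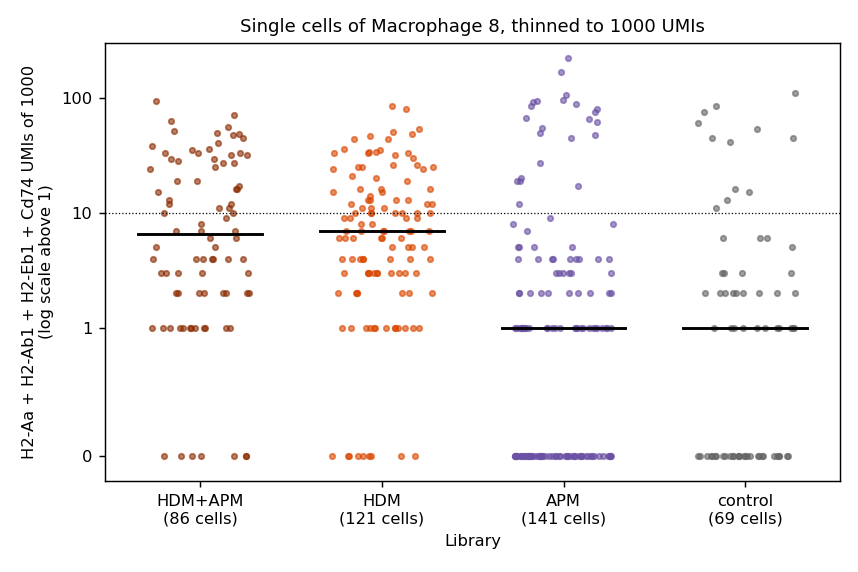
UMIs of H2-Aa, H2-Ab1, H2-Eb1 and Cd74 in each Macrophage 8 cell after thinning to 1000 UMIs, by library from HDM+APM and HDM to APM and control; short bars are medians and the dotted line is at 10 UMIs. The median cell held 6.5, 7, 1 and 1 core UMIs, and single cells of APM and control reached 223 and 110.

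B cells could be compared between HDM+APM (449 cells) and HDM (128 cells). Over both clusters summed, H2-DMb1, Ciita and the DO genes were lower in HDM+APM while Cd74 was not. Cd74 had 10789 CPM in HDM+APM and 10169 CPM in HDM, a ratio of 1.06 (1.01 to 1.11). H2-DMb1 fell to 40.3 CPM in HDM+APM, against 101 CPM in HDM, a ratio of 0.398 (0.246 to 0.671). H2-Oa fell to 62.9 CPM in HDM+APM, against 246 CPM in HDM, a ratio of 0.256 (0.185 to 0.359). For H2-Ob the levels were 162 CPM in HDM+APM and 342 CPM in HDM, a ratio of 0.474 (0.367 to 0.619), and for Ciita 28.1 CPM in HDM+APM and 77.1 CPM in HDM, a ratio of 0.364 (0.209 to 0.673). These 4 of 10 members were called lower, beside 11.4% of all genes, and 0 were called higher beside 5.63%. H2-Aa, H2-Ab1, H2-Eb1, H2-DMa and H2-DMb2 had ratios of 0.743, 0.675, 0.69, 0.745 and 0.95, short of the fold. The members' median was -0.55, against -0.04 over all genes.

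Different clusters held most of the B cells in these libraries: 404 of 449 were B cells 2 in HDM+APM and 119 of 128 were B cells 1 in HDM. H2-Ob and H2-Oa are among the 10 leading genes of the B cells 1 cluster, and the mix of clusters moves with their sums. Within B cells 2 (404 cells in HDM+APM and 9 in HDM), H2-Ob was at 156 CPM (140.5 to 173) in HDM+APM and 418 CPM (228 to 701) in HDM, and H2-Oa at 60.9 CPM (51.3 to 71.9) in HDM+APM and 239 CPM (103 to 470.4) in HDM, with intervals that did not overlap. The HDM values came from 14 H2-Ob UMIs in 5 cells and 8 H2-Oa UMIs in 4 cells, and the intervals leave out the spread between cells. Ciita had 27.9 CPM (21.5 to 35.6) in HDM+APM and 29.8 CPM (0.755 to 166) in HDM there, the latter from 1 UMI. In B cells 1 Ciita had 34.4 CPM (7.09 to 101) and 86.3 CPM (48.3 to 142). For H2-DMb1 the levels were 40.5 CPM (32.7 to 49.6) and 149 CPM (48.4 to 348) in B cells 2, and 34.4 CPM (7.09 to 101) and 92.0 CPM (52.6 to 149) in B cells 1. The separate intervals of Ciita and H2-DMb1 thus overlapped within each cluster, for H2-DMb1 in B cells 2 only just. Separate intervals can overlap where the interval of the ratio, used for calls, excludes 1. No ratio was formed within B cells 2, with 9 cells in HDM, so the overlap does not show equal levels. Within B cells 1 alone (45 and 119 cells), H2-Ob had a ratio of 0.979 (0.6 to 1.57) and Cd74 of 0.986 (0.908 to 1.07). There H2-Ab1, H2-Eb1 and H2-Oa were called lower, at 0.663 (0.544 to 0.804), 0.632 (0.522 to 0.762) and 0.464 (0.208 to 0.937), or 3 of 8 members beside 7.9% of genes lower and 9.39% higher. The median within B cells 1 was -0.34, against 0.03 over all genes. The median depth of the B cells was 5226 UMIs in HDM+APM and 1382.5 in HDM, and its part in the result was not tested. All 9 B cell markers were above 0 in both clusters.

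In T cells and granulocyte-like cells the members stayed at low levels. T cells had 5 measured members between HDM+APM and HDM, of which 0 were called beside 4.4% of genes higher and 5.4% lower, with a median of 0.03 against -0.03 over all genes. Between HDM+APM and APM T cells also had 0 members called, beside 5.74% higher and 11.5% lower, with a median of 0.21 against -0.12. Granulocyte-like cells had 856 CPM of Cd74 in HDM+APM and 745 CPM in HDM. They had 0 of 4 members called, beside 8.56% higher and 6.6% lower.

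Several genes that prepare the peptides were called in Macrophage 8 between HDM and control. Of 9 measured genes, which encode lysosomal proteases, their inhibitor Cst3 and the thiol reductase Ifi30, 5 were called higher and 1, Cst3, lower, beside 10.8% and 8.65% of all genes, with a median log2 ratio of 1.15 against 0.07 over all genes. Lgmn, the lysosomal asparagine endopeptidase, was at 1108 CPM in HDM and 229 CPM in control, a ratio of 4.84 (3.45 to 6.99). Ctsl and Ctsb, lysosomal cathepsins, had ratios of 2.97 (2.08 to 4.37) and 2.47 (2.1 to 2.92). Ctss, the cathepsin known to trim the invariant chain in dendritic and B cells, was at 4422, 4639.9, 2475 and 2091 CPM in Macrophage 8 of HDM+APM, HDM, APM and control. Between APM and control 0 of the 9 were called in either direction, with a median of 0.13. Between HDM+APM and HDM only Lgmn was called, lower, at 497 CPM in HDM+APM and 1108 CPM in HDM, a ratio of 0.449 (0.384 to 0.523). In the other macrophages of APM over control only Ctsb was called, lower, at 998 CPM in APM and 1578 CPM in control, a ratio of 0.632 (0.618 to 0.647), with a median of -0.26 over the 9.

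Several genes of the interferon gamma axis, which induces Ciita in macrophages, were higher after allergen. In the other macrophages of HDM over control 5 of 9 measured genes were called higher and 0 lower, beside 7.24% and 2.67% of all genes, with a median of 0.71 against 0.04 over all genes. Among them were Gbp2, an interferon-induced GTPase, at 49.5 CPM in HDM and 15.4 CPM in control, a ratio of 3.22 (1.69 to 5.61), and Jak2, a kinase of the interferon gamma receptor, at 41.9 CPM in HDM and 15.3 CPM in control, a ratio of 2.73 (1.35 to 4.98). In Macrophage 8 of HDM over control 4 of 8 were called higher, beside 10.8% of all genes, with Irf1 at 71.9 CPM in HDM and 19.1 CPM in control, a ratio of 3.77 (1.18 to 19.2). Between APM and control the other macrophages had 1 of 10 called higher and 1 lower, beside 4.28% and 3.41% of all genes, the lower one being Irf1 at 14.9 CPM in APM and 24.2 CPM in control, a ratio of 0.616 (0.509 to 0.745). Of the RFX, NF-Y and coactivator genes, 0 of 10 were called in the other macrophages of APM over control and 0 of 10 in those of HDM over control. Among turnover genes, March1 and March8, ubiquitin ligases of the family that removes class II from the surface, had ratios of 0.971 (0.836 to 1.13) and 0.956 (0.85 to 1.08) in APM over control.

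Several genes of a list of costimulatory and inhibitory ligands and receptors were called lower in HDM+APM over HDM. In Macrophage 8, 3 of 4 measured genes of the list were called lower, beside 6.68% of all genes: Cd83, which stabilises surface class II, at 20.1 CPM in HDM+APM and 50.1 CPM in HDM, a ratio of 0.402 (0.171 to 0.878), and the inhibitory ligands Pdcd1lg2, at 56.4 CPM in HDM+APM and 113 CPM in HDM, a ratio of 0.498 (0.303 to 0.803), and Cd274, at 54.4 CPM in HDM+APM and 95.8 CPM in HDM, a ratio of 0.568 (0.338 to 0.937). In the B cells of both clusters, 2 of 6 were called lower, beside 11.4% of all genes, Cd72 at 8.39 CPM in HDM+APM and 203 CPM in HDM, a ratio of 0.0414 (0.023 to 0.0721), and Cd83 at 39 CPM in HDM+APM and 149 CPM in HDM, a ratio of 0.261 (0.172 to 0.405). Irf8, a lineage factor of B cells and dendritic cells, was at 57 CPM in HDM+APM and 444 CPM in HDM, a ratio of 0.129 (0.0979 to 0.169), in B cells, and Pax5, the B cell identity factor, at 72.1 CPM in HDM+APM and 149 CPM in HDM, a ratio of 0.482 (0.328 to 0.732). H2-Eb2, a class II beta gene outside the 10 members, was at 4.19 CPM in HDM+APM and 116 CPM in HDM, a ratio of 0.0362 (0.0155 to 0.0786). These B cell values carry the same mix of clusters as the members' values.

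The 10 members did not vary as a block over the 31 sums of a cell type in a library with at least 30 cells. H2-Aa correlated with H2-Ab1 at Pearson's r = 0.98 and with Cd74 at 0.97 on the log2 scale, H2-Oa with H2-Ob at 0.89 and H2-Ob with Ciita at 0.90. H2-DMb1 and H2-DMb2 had r = 0.06, and H2-DMb1 with H2-Oa had -0.20. With the mean of the 4 core genes, r was 0.81 for H2-DMb2, 0.72 for H2-Oa, 0.70 for Ciita, 0.64 for H2-Ob, 0.59 for H2-DMa and 0.32 for H2-DMb1. Outside the members, the 8 genes most like the core mean were Irf4 (0.81), Gm15987 (0.79), Kctd14 (0.79), Cnn3 (0.79), Ly86 (0.78), Cd40 (0.77), Cd83 (0.77) and Hspb11 (0.76). Irf4 is a transcription factor of B cells and dendritic cells, Cd40 receives T cell help, and Cd83 marks activated dendritic cells. Irf4 was at 99 CPM in dendritic cells of HDM, 44.8 CPM in B cells 2 of HDM+APM and 38.3, 34.8, 6.23 and 6.36 CPM in Macrophage 8 of HDM+APM, HDM, APM and control. The sums of 1 library share its free RNA and depth, so these correlations describe the pattern and carry no p.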

How the data were processed

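Per the labels' protocols, the 10x Genomics 3' kit (v2) was used. Cell Ranger 2.2.0, Seurat 2.3.4 and build mm10 come from the submitters' processing notes, without their roles. The authors deposited raw UMI counts of 13838 genes in 9925 cells, with a library, a coarse and 1 of 17 refined cell types for each cell. Cells held 496 to 9998 UMIs. 23 cells coarse-typed as epithelial but refined as macrophages were kept.

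UMIs were summed per refined type and library with Python 3.11.15, numpy 2.4.6 and pandas 2.3.3. CPM was given with exact Poisson intervals, shares with exact Clopper-Pearson intervals and ratios with exact conditional binomial intervals (scipy 1.17.1). Classes entered a comparison with at least 30 cells in both libraries, and genes with at least 20 UMIs over both. Log2 ratios used a pseudocount of 10 CPM. With 1 pooled library per group no test was made. Intervals and limits for a count of 0 (3 counts) cover counting error only. The calling script was tested on simulated data.

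All 10 members are described. Genes named outside them are the up to 3 measured members of each list with the largest absolute log2 ratio in a comparison, and the 8 genes that correlated best with the mean of the 4 core genes among genes of at least 50 CPM in 1 sum. Of the genes this rule names, 1 is not reported here. The members, lists and alternatives were chosen with earlier results of these data known.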

Additional observations from a re-analysis of the deposited data

Results flagged for a closer look

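H2-Aa, H2-Ab1, H2-Eb1 and Cd74 had ratios of opposite sign in Macrophage 8 and in the other macrophages between the APM and control libraries. In Macrophage 8 the log2 ratio of APM over control was 0.28 for H2-Aa, 0.58 for H2-Ab1, 0.28 for H2-Eb1 and 0.43 for Cd74. In Macrophages 1 to 7, 9 and 10 it was -0.54 for H2-Aa, -0.51 for H2-Ab1, -0.38 for H2-Eb1 and -0.27 for Cd74. The difference between the classes was not tested, since each group is 1 library. Without the Macrophage 8 cells that held a UMI of a dendritic cell marker other than Ccl17 and Ccl22, H2-Eb1 had a log2 ratio of -0.12 there.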

How the results depend on the processing

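Of 87 alternative values of the members' median log2 ratio, 73 stayed within the counting interval, 11 moved beyond it and 3 changed sign. Of 622 values for single members, 514 stayed, 84 moved and 24 changed sign. For Macrophages 1 to 7, 9 and 10 of APM over control, the median was -0.40 with cells thinned to 1000 UMIs, -0.33 as a mean over cells and 0.0095 with all macrophage clusters as 1 class, where H2-Eb1 was at 0.0095 and Cd74 at 0.011. Equal cluster shares put Cd74 at 0.042 and H2-DMa at -0.16. For HDM over control in that class, all macrophage clusters gave 1.39. For Macrophage 8 of HDM over control, the median was 0.0702 with cells of at least 1000 UMIs (H2-Ab1 -0.0197), 0.75 thinned (Cd74 0.16), 1.15 as a mean over cells (Cd74 0.91) and 1.28 without cells holding a dendritic cell marker UMI (Cd74 0.70). Without those cells H2-Eb1 of APM over control was at -0.12.

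For Macrophage 8 of HDM+APM over HDM, the mean over cells gave -0.0049 (H2-Aa -0.0049, H2-Ab1 -0.11, H2-Eb1 -0.0693), and leaving out the marker-holding cells gave -0.44 (H2-Aa -0.41, H2-Ab1 -0.44, H2-Eb1 -0.50, Cd74 -0.57, H2-DMa -0.0277). For HDM+APM over APM, thinning gave 0.42 (H2-Ab1 0.16, Cd74 0.0195), the mean over cells gave H2-Ab1 0.34 and Cd74 0.25, and leaving out the marker-holding cells gave 0.60 (H2-Ab1 0.65, Cd74 0.0366). B cells 1 alone gave a median of -0.34 and Cd74 at -0.0207, and T cells of HDM+APM over HDM without a minimum of UMIs gave 0.35. The causes were not tested. Size factors from medians of ratios moved the median of all genes by 0.14 in Macrophages 1 to 7, 9 and 10 of HDM over control, -0.11 in B cells and -0.15 in T cells of HDM+APM over APM. The alternatives that left out marker-holding cells or cells coarse-typed as epithelial were chosen after seeing the data. No paired analysis was possible because each group is 1 library.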
